A study of Mus musculus with 19 samples.

Results

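Red cell content was described in 19 mouse mammary tumours through 7 genes, matched by symbol among the 26796 genes of the expression table: the adult beta-globin genes Hbb-bs and Hbb-bt, the alpha-globin genes Hba-a1 and Hba-a2, and the red cell genes Alas2, Slc4a1 and Bpgm. The tumours were formed by Met1, a mouse mammary tumour line, and their hosts received extracellular vesicles (EVs), the membrane particles that cells release, from neutrophils. The neutrophils had been exposed to DMSO, the solvent (9 tumours), or to 27-hydroxycholesterol, abbreviated 27HC, a cholesterol metabolite (10 tumours). Every tumour therefore came from a mouse that received neutrophil EVs, and mice without EVs are not analysed here. The sources used here do not give the strain, age or sex of the mice, the dose, route or time of the EVs, or the site of the tumours. They also do not say that each tumour came from a separate mouse, so the p-values measure the spread between these samples. Each tumour has a number pair in its title, such as 1_3. The first number is 1 for 5 DMSO and 5 27HC tumours and 2 for 4 DMSO and 5 27HC tumours, and its meaning is not stated.

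Haemoglobin, the oxygen carrier of red cells, is built from alpha-globin and beta-globin chains, each holding a haem group. Erythroid precursors in bone marrow and, in mice, spleen transcribe the globin genes at very high rates, and the transcription factors GATA1 and KLF1 are central to this. Mature mammalian red cells have no nucleus and make no new RNA, but reticulocytes, the young red cells of the circulation, still carry globin mRNA. A whole tumour contains blood in its vessels and wherever vessels leak, so globin mRNA is often used as a gauge of blood in a tissue sample. In bulk RNA, more red cells and more globin mRNA per red cell cannot be told apart.

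The promoters of the globin genes are shown because the 4 globin mRNAs varied together across the tumours, and those of Alas2 and Bpgm because their mRNAs stood at opposite ends of likeness to the globins. RefSeq promoters (build GRCm38.p6) were found for 6 of the 7 genes, all but Slc4a1. Each printed sequence is the 250 bases before the RefSeq start, 5′ to 3′ on the gene's strand. Capitals mark GATAA, the core of sites for GATA factors, the KLF motif CACCC, and CCAAT, each on either strand, as well as TATAA on the gene's strand. The GENCODE gene spans given further on reach upstream of the RefSeq starts, by 168 bases for Hbb-bs, 149 for Bpgm, 73 for Hbb-bt, 42 for Alas2 and 3 for Hba-a2, so these bases of each window lie inside the GENCODE gene. Of the Hba-a1 window, which is described but not printed, 161 bases lie inside the GENCODE gene. Overlapping matches run into a single stretch of capitals. The windows are chr7:103827929-103828178 (minus strand) for Hbb-bs, chr7:103813924-103814173 (minus strand) for Hbb-bt, chr11:32296242-32296491 (plus strand) for Hba-a2, chrX:150547167-150547416 (plus strand) for Alas2 and chr6:34476106-34476355 (plus strand) for Bpgm.
Hbb-bs: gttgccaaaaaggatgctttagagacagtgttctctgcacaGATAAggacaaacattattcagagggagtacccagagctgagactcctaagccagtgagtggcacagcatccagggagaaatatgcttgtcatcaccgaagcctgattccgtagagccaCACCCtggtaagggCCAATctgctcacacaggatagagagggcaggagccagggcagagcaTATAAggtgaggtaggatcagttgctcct
Hbb-bt: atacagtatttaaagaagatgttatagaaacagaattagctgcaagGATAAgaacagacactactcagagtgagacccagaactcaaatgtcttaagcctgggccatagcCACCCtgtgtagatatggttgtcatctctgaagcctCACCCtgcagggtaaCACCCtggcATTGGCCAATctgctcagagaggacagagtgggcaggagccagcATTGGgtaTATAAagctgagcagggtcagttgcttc
Hba-a2: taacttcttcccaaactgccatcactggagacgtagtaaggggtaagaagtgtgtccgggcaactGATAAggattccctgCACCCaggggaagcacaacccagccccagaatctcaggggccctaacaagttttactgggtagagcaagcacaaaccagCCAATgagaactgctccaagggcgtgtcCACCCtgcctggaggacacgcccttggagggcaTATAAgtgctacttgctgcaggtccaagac
Alas2: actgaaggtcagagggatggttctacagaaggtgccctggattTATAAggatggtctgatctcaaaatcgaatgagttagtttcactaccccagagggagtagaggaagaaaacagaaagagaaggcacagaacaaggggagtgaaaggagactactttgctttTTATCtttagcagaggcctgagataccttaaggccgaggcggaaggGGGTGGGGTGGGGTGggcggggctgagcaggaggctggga
Bpgm: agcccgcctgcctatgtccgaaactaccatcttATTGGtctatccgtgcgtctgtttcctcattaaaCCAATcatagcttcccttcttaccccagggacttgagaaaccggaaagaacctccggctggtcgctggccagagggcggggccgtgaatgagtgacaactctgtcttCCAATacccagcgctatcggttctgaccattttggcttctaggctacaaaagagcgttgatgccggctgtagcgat

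All 4 globin promoters held all 4 motifs, and so did 218 of 32851 promoters of this length (0.66%). Singly, GATAA was found in 22.6% of those promoters, CACCC in 52.0%, CCAAT in 33.8% and TATAA in 16%. In Hbb-bs the first base of GATAA lay 209 bases before the start, that of CACCC 90, that of CCAAT 76 and that of TATAA 29. Hbb-bt had TATAA 28 bases before the start, and 3 matches each to CACCC and CCAAT, 1 pair of which abutted on opposite strands. The Hba-a1 window was the same as that of Hba-a2 over all 247 bases that both hold, shifted by 3 bases, so it is not printed. The Hbb-bs and Hbb-bt windows were less alike, with 178 of 243 aligned bases identical (73.3%). Alas2 held GATAA on the opposite strand 86 bases before the start and 3 CACCC matches on that strand between 40 and 30 bases before it. Its TATAA lay 207 bases before the start, and it held no CCAAT. The pair GATAA and CACCC occurred in 10.1% of all promoters. Bpgm held 3 CCAAT matches and none of the other 3 motifs. These matches describe letters in the windows, not bound sites.

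The tumours had between 28139419 and 41179056 expected counts each. A group of 5 libraries stood apart in base composition: in DMSO 1_5 and 2_3 and 27HC 1_3, 1_5 and 2_3 the mean GC content of the counted transcripts was 49.82% to 50.01%, against 51.25% to 52.85% in the other 14. Transcripts typical of other tissues also differed between libraries. Summed CPM (counts scaled to a common library size, TMM-adjusted) of 10 skeletal muscle markers ran from 5.363 to 1462 in the DMSO tumours and from 4.445 to 3932 in the 27HC tumours, and that of the 8 salivary gland markers in the table from 0.9984 to 6854 and from 0.1756 to 1037. The part of these transcripts in the red cell genes was not tested. Over the tested muscle markers, the median Spearman rho with Hbb-bs was 0.25.

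The globin mRNAs differed more between tumours than nearly all other genes. Summed over the 4 globin genes, the DMSO tumours ran from 33.66 CPM (2_3) through a median of 180.5 to 2129 (1_3). The 27HC tumours ran from 62.95 CPM (1_4) through a median of 229.2 to 1501 (1_2). The groups overlapped over most of this range, and 1 tumour of each group, DMSO 1_3 and 27HC 1_2, lay far above the rest. The next highest, DMSO 1_4, had 538.2 CPM. The highest sum was 63.25 times the lowest. Even in DMSO 1_3 the globins made up only 0.1687% of all expected counts, and in the lowest tumour 0.004172%.

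Hbb-bs (GRCm38 chr7:103826534-103828096, minus strand), the more abundant of the adult beta-globin genes here, had 13.48 CPM in the lowest DMSO tumour, a median of 39.0 and 700.9 in the highest. In the 27HC tumours the lowest was 19.08 CPM, the median 51.27 and the highest 262.8. The next highest tumours had 114.9 CPM (DMSO) and 100.4 CPM (27HC), well below the top tumour of each group. Hbb-bt (chr7:103812524-103813996, minus strand), its neighbour in the beta-globin cluster, ran from 0.802 CPM through 3.638 to 35.8 in the DMSO tumours and from 0.8444 through 4.77 to 39.83 in the 27HC tumours. Hbb-bt made up 2.698% to 13.16% of the beta-globin CPM of a tumour.

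Hba-a1 (chr11:32283511-32284465, plus strand), an alpha-globin gene, had the highest level of the 7 genes. It ran from 13 CPM through a median of 103.6 to 1112 in the DMSO tumours and from 30.2 through 124.0 to 953.8 in the 27HC tumours. Hba-a2 (chr11:32296489-32297298, plus strand), the second adult alpha-globin gene, ran from 6.378 CPM through 25.99 to 280.0 and from 8.856 through 36.97 to 244.3. For each alpha-globin gene the same tumours, DMSO 1_3 and 27HC 1_2, were the highest of their groups.

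How the reads were divided within each pair of globin genes is uncertain. Of the 31-base words in the Hba-a2 transcripts, 92.6% also occur in those of Hba-a1, and 75.4% of the Hba-a1 words occur in Hba-a2. Between Hbb-bs and Hbb-bt the shares were 54.4% and 59.4%, and Hbb-bs and Hba-a1 shared 0. Sums over a pair do not depend on that division, whereas the ratio of Hba-a1 to Hba-a2, which ran from 2.038 to 4.727, does.

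The ratio of alpha-globin to beta-globin CPM ran from 1.236 through a median of 1.93 to 3.941 in the DMSO tumours and from 1.248 through 2.465 to 4.391 in the 27HC tumours. The groups overlapped almost completely. In the 5 libraries of low GC content the ratio was 1.236 to 1.863 with a median of 1.357, and in the other 14 it was 1.501 to 4.391 with a median of 2.771. The alpha-globin transcripts have a higher GC content (57.5% for Hba-a1 and 57.2% for Hba-a2) than the beta-globin transcripts (52.4% for Hbb-bs and 50.8% for Hbb-bt). The part of base composition in the ratio was not tested.

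**Figure D1:**
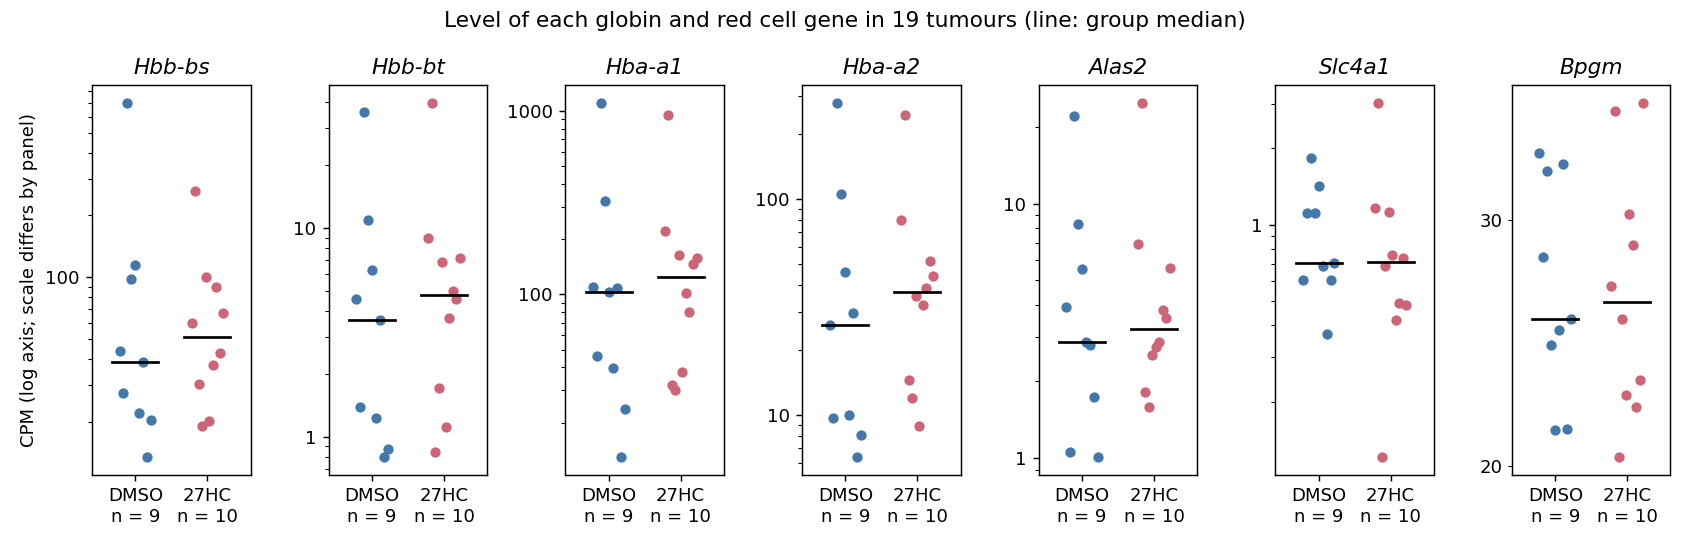
CPM of each of the 7 genes (log axis, with a scale of its own in each panel) in 9 DMSO and 10 27HC tumours. Each point is a tumour and each line a group median. In the 4 globin panels and in Alas2 a single tumour of each group lies above the rest, 700.9 CPM in DMSO 1_3 and 262.8 in 27HC 1_2 for Hbb-bs, while Bpgm spans 20.29 to 36.37 CPM.

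Alas2 (chrX:150547375-150570638, plus strand) encodes the erythroid form of the first enzyme of haem synthesis and is a specific gene of developing red cells. Its DMSO values ran from 1.01 CPM (2_4) through a median of 2.867 to 22.25 (1_3), and its 27HC values from 1.588 (1_4) through 3.206 to 25.01 (1_2). The 2 tumours highest in globin were also the highest in Alas2. Alas2 CPM per 1000 CPM of globin had a median of 18.71 over all tumours and ran from 8.289 (27HC 1_5) to 51.72 (DMSO 2_3). DMSO 2_3 was the tumour with the least globin, and globin is the divisor, so a low globin sum by itself raises this ratio. In the 2 tumours highest in globin this ratio was 10.45 (DMSO 1_3) and 16.67 (27HC 1_2), both below the median. Thus Alas2 varied less than the globins, 24.77-fold from lowest to highest tumour against 63.25-fold for the globin sum.

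Slc4a1 (chr11:102348824-102366203, minus strand) encodes band 3, the anion exchanger and main integral protein of the red cell membrane. It ran from 0.3706 CPM (2_2) through 0.7057 to 1.825 (1_3) in the DMSO tumours and from 0.1212 (1_3) through 0.7115 to 3.031 (1_2) in the 27HC tumours. These levels rest on few counts, at most 77.46 expected counts in a tumour. Slc4a1 again was highest in DMSO 1_3 and 27HC 1_2, but the other tumours did not keep their globin order. Per 1000 CPM of globin, Slc4a1 ran from 0.8575 in DMSO 1_3 to 17.97 in DMSO 2_3.

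Bpgm (chr6:34476207-34505613, plus strand) encodes bisphosphoglycerate mutase, which in red cells makes the bisphosphoglycerate that lowers the oxygen affinity of haemoglobin. It ran from 21.21 CPM through a median of 25.46 to 33.47 in the DMSO tumours and from 20.29 through 26.18 to 36.37 in the 27HC tumours. Bpgm varied 1.793-fold over all 19 tumours and had 32.51 CPM in DMSO 1_3 and 35.89 in 27HC 1_2, within the range of the other tumours. Its lowest values were those of the 5 libraries of low GC content, 20.29 to 22.48 CPM against 23.03 to 36.37 in the other 14, without overlap. The part of base composition in Bpgm was not tested.

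Per length of the longest coding transcript, the order of mean levels was Hba-a1 (286.6 CPM per kb), Hbb-bs (151.7), Hba-a2 (102.9), Bpgm (12.23), Hbb-bt (10.88), Alas2 (2.737) and Slc4a1 (0.2021). Neighbours in this order were separated in all 19 tumours for Hba-a2 over Bpgm, Hbb-bt over Alas2 and Alas2 over Slc4a1. Hba-a1 exceeded Hbb-bs, Hbb-bs exceeded Hba-a2, and Bpgm exceeded Hbb-bt in 15 of 19 tumours each. The spread of the genes on the log2 CPM scale set 6 of them apart from Bpgm. Its SD was 1.423 for Hbb-bs, 1.664 for Hbb-bt, 1.696 for Hba-a1, 1.597 for Hba-a2, 1.242 for Alas2 and 0.889 for Slc4a1, against a median of 0.475 over all tested genes. The 4 globin genes and Alas2 exceeded at least 97.2% of tested genes in SD, Slc4a1 89.5%, and Bpgm, with an SD of 0.269, only 15.3%.

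Many genes of nucleated erythroid precursors were near the limit of detection. Of 22 such genes listed, 21 were in the table, and 13 of these had too few counts for the test. The 8 tested genes had higher levels, among them Tfrc (mean 88.81 CPM), Alas2 (5.576), Epor (4.836) and Gata1 (0.6219). Among the 13 were Klf1 (the erythroid activator of beta-globin), Hemgn, Trim10, Trim58, Tspo2, Rhag, Kel, Epb42, Car1, Gfi1b and Icam4. The summed CPM of the 13 ran from 0.8631 through a median of 1.314 to 3.44 in the DMSO tumours and from 0.9127 through 1.486 to 2.942 in the 27HC tumours. This sum leaves out Alas2 and Slc4a1, which were tested, and holds only genes with low counts. It was not high in DMSO 1_3 and 27HC 1_2, the tumours with the most globin. DMSO 1_3, with 57420.5 expected counts of globin, had 35.45 counts over the 13 genes, or 1.314 CPM. 27HC 1_2, with 38346.1 counts of globin, had 26.39 counts, or 1.033 CPM. The 5 highest sums were those of the libraries of low GC content, which ran from 1.951 to 3.44 CPM against 0.8631 to 1.735 in the other 14.

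Single genes of these 13 had few counts as well. Klf1 was above 0 in every tumour but reached at most 13.93 expected counts. Kel, a blood group antigen gene, was at 0 in 10 tumours, Tspo2 in 13 and Car1 (carbonic anhydrase 1) in 12. Car1 was above 0 in all 5 libraries of low GC content and at 0 in 12 of the other 14. Apart from such contrasts, counts this low leave differences between tumours in these single genes hard to detect at this depth. Of the embryonic globin genes, Hbb-bh1 was at 0 in 18 of 19 tumours.

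The precursor genes with enough counts for the test, apart from Alas2 and Slc4a1, had a Spearman rho with Hbb-bs between -0.58 and 0.21. Gata1, the master regulator of erythroid genes that platelet precursors and mast cells also use, had a mean of 0.7222 CPM in the DMSO tumours and 0.5317 in the 27HC tumours. Its rho was -0.43. Epor, the erythropoietin receptor, had a rho of 0.21, and Tfrc, the transferrin receptor, which most dividing cells use, 0.08. Ermap, an erythroid membrane protein gene, ran against the globins with a rho of -0.58 with Hbb-bs and -0.71 with Alas2.

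Correlations between the genes were computed on log2 CPM over 19 tumours, for 19 pairs, with permutation p-values adjusted by the Benjamini-Hochberg method over the pairs. The globins moved together. Pearson r of Hbb-bs was 0.928 with Hbb-bt, 0.915 with Hba-a1 and 0.923 with Hba-a2, each with a permutation adjusted p of 4.75e-05, the smallest reached. Spearman rho for these pairs was 0.91, 0.88 and 0.89. Hba-a1 and Hba-a2 had an r of 0.973, and within each of these pairs shared reads are part of the measurement, but Hbb-bs and Hba-a1 share no 31-base word. Hbb-bs and Hba-a1 kept an r of 0.923 among the 10 tumours with first number 1, 0.834 among the 9 with first number 2, and 0.957 when the 5 low-GC libraries were left out.

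Alas2 followed the globins closely. Its r with Hbb-bs was 0.871 and its rho 0.802 (permutation adjusted p 7.6e-05 for r). Without the 2 tumours farthest from the median of Hbb-bs, r was 0.731. It was 0.887 within first number 1, 0.747 within first number 2 (permutation adjusted p 0.0703) and 0.916 over the 14 libraries of higher GC content. The relation therefore kept its direction in every subset, with a p above the threshold in the 9 tumours of first number 2.

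Slc4a1 followed the globins less closely, and unevenly. Its r with Hbb-bs was 0.595 (permutation adjusted p 0.0209) and with Alas2 0.602 (permutation adjusted p 0.0198). The rank correlations did not pass, with a rho of 0.511 and 0.418 (permutation adjusted p 0.0662 and 0.167). Without the 2 tumours farthest from the median r was 0.306 and 0.258, so both r values rest on those tumours. Leaving out DMSO 1_3 alone gave 0.53 and 0.536, and leaving out 27HC 1_2 alone gave 0.495 and 0.447, each with an adjusted p above 0.05. Within first number 1 the r with Hbb-bs was 0.673 (permutation adjusted p 0.0765) and the rho 0.855 (permutation adjusted p 0.0162). Within first number 2 they were -0.528 and -0.417, and neither passed.

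On log2 CPM, Bpgm did not pass the test with any of the 3 genes it was paired with. Its r was 0.292 with Hbb-bs (rho 0.137, permutation adjusted p 0.268), 0.432 with Alas2 (permutation adjusted p 0.103, and on linear CPM 0.497 with 0.0487) and 0.27 with Slc4a1 (permutation adjusted p 0.298). Without the 2 tumours farthest from the median, r with Hbb-bs was -0.079. Without the libraries of low GC content, where Bpgm was lowest, it was 0.455.

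**Figure D2:**
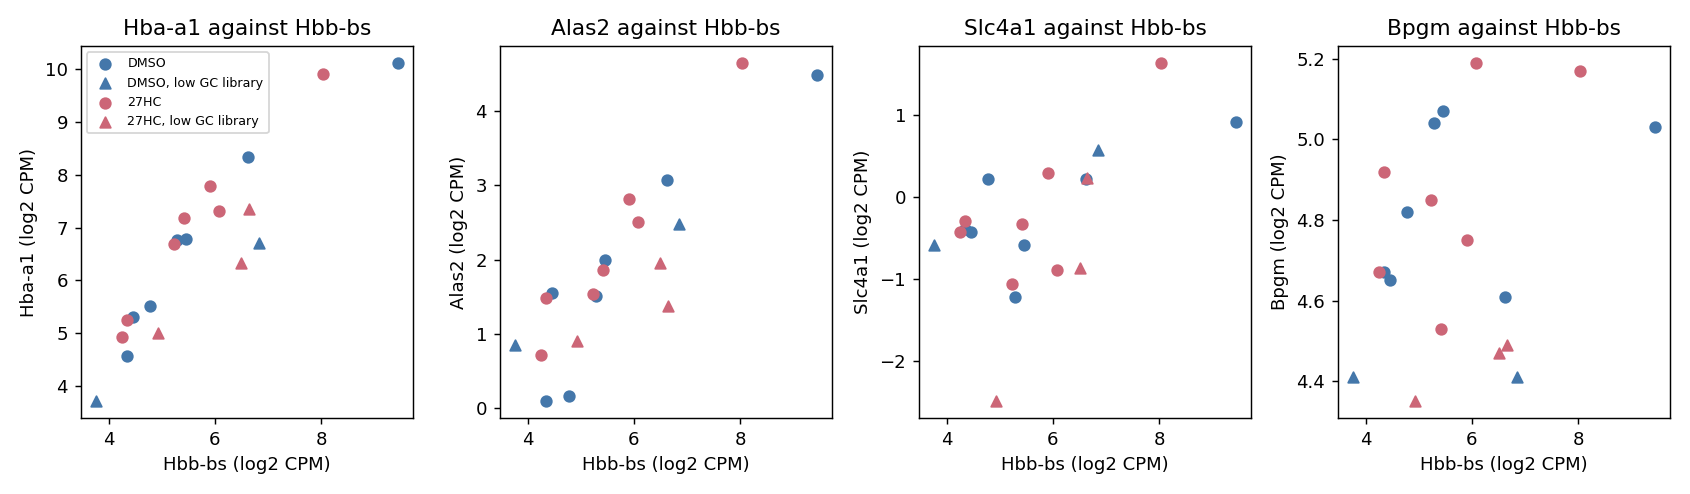
Log2 CPM of other red cell genes (vertical axis) against Hbb-bs (horizontal axis) in 19 tumours, with colours for DMSO and 27HC and triangles for the 5 libraries of low GC content. Hba-a1 and Alas2 rise with Hbb-bs along the whole range (r 0.915 and 0.871), Slc4a1 mainly in the highest tumours (r 0.595), and Bpgm stays nearly level (r 0.292).

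Genes of other blood cells were set beside the globins. Hbb-bs had an r of 0.566 with Pf4 and 0.624 with Ppbp, chemokine genes of platelets (permutation adjusted p 0.0359 and 0.0198). Without the 2 tumours farthest from the median these were 0.076 and 0.007. Over 19 tumours these r values thus depended on those tumours, and without DMSO 1_3 alone r was 0.155 for Pf4 and 0.334 for Ppbp. Both lost their call without 27HC 1_2 as well (0.591 and 0.556), and Pf4 also without DMSO 1_4 (0.553). The rho over 19 tumours was 0.339 for Pf4 and 0.311 for Ppbp, and neither passed. Over the 14 libraries of higher GC content r was 0.802 for Pf4 and 0.825 for Ppbp (permutation adjusted p 0.00936 and 0.00541). There the rho was 0.679 for Pf4 (permutation adjusted p 0.0265) and 0.538 for Ppbp (permutation adjusted p 0.121). Ppbp rests on at most 40.78 expected counts in a tumour, so its value is a description of sparse counts. With S100a8, a neutrophil gene, r was 0.41, with Cd79a of B cells -0.456 and with Pecam1 of endothelium -0.038, and none of these r values passed. For Cd79a the rho of -0.54 did pass (permutation adjusted p 0.0492), and it was -0.754 over the 14 libraries of higher GC content (permutation adjusted p 0.00877), but -0.4 without the 2 tumours farthest from the median (permutation adjusted p 0.304). Hmox1, the haem-degrading enzyme, had an r of 0.395 (permutation adjusted p 0.128), which was 0.62 over the 14 libraries of higher GC content (permutation adjusted p 0.0341) and 0.146 without the 2 farthest tumours. The r values of Cd163, the haemoglobin scavenger receptor of macrophages (-0.305), and of the total expected count (-0.205) did not pass.

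**Figure D3:**
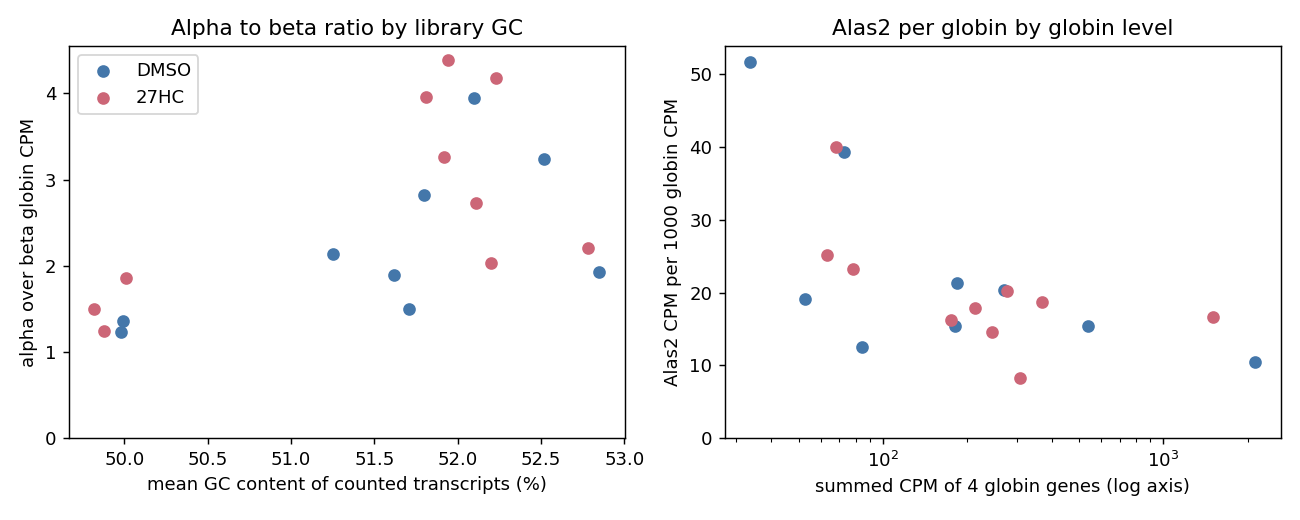
Left, ratio of alpha-globin to beta-globin CPM (vertical axis) against the mean GC content of the counted transcripts in percent (horizontal axis). Right, Alas2 CPM per 1000 CPM of globin (vertical axis) against the summed CPM of the 4 globin genes (log axis); each point is 1 of 19 tumours. The 5 libraries near 50% GC lie at ratios up to 1.863, and the highest Alas2 ratio, 51.72, is that of the tumour with the least globin. Globin is also the divisor on the vertical axis of the right panel, so the axes of that panel are not independent.

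The comparison of 27HC with DMSO asks whether EVs from 27HC-treated neutrophils went with other levels of these genes in the tumours. No difference passed the test for any of the 7 genes. Of these, 2 had a fitted log2 fold change above 0 and 5 below 0 (53.9% of tested genes were above 0). In edgeR's quasi-likelihood test with Benjamini-Hochberg adjustment, 0 of 7 were called (0% of the 15629 tested genes were called), all 7 with an adjusted p of 0.9998. At an unadjusted p under 0.05 the count was also 0 of 7 (2.27% of tested genes, of which 1.29% were higher and 0.979% lower with 27HC). limma-voom called 0 genes of the table and DESeq2 called 2, neither of them among the 7. No tested gene had groups without overlap in CPM.

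Mean CPM of Hbb-bs was 120.0 ± 220.8 (SD, n = 9) in DMSO tumours and 72.99 ± 72.24 (SD, n = 10) in 27HC tumours. The log2 fold change was -0.72 (SE 0.69), with a 95% interval from -2.143 to 0.709. The medians stood in the other order (39.0 and 51.27 CPM), and the lower mean of the 27HC tumours rested on DMSO 1_3. Without that tumour the log2 fold change was 0.62.

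For Hba-a1 the means were 208.9 ± 351.3 and 192.7 ± 275.1 CPM (SD, n = 9 and 10). Its log2 fold change was -0.12 (SE 0.77). The values were -0.05 (SE 0.71) for Hba-a2 and 0.13 (SE 0.75) for Hbb-bt. The intervals of these 3 genes ran from -1.71 to 1.477, from -1.529 to 1.438 and from -1.426 to 1.691, all reaching beyond 2-fold in both directions. Leaving out DMSO 1_3 gave 1.01, 0.90 and 1.10 for Hba-a1, Hba-a2 and Hbb-bt, and leaving out 27HC 1_2 gave -0.95, -0.72 and -0.71. A single tumour in each group thus moved the values of these 3 genes further than their distance from 0.

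Alas2 had means of 5.5 ± 6.703 and 5.645 ± 7.004 CPM (SD, n = 9 and 10) and a difference of 0.04 (SE 0.59) on the log2 scale. It moved to 0.72 without DMSO 1_3 and to -0.65 without 27HC 1_2. Slc4a1 had means of 0.9381 ± 0.4672 and 0.9012 ± 0.8117 CPM and a log2 fold change of -0.08 (SE 0.42). Bpgm was the most precise, with means of 27.15 ± 4.846 and 27.15 ± 5.664 CPM and a 95% interval of the log2 fold change from -0.278 to 0.278. The interval lay within 2-fold for 2 of the 7 genes, Slc4a1 and Bpgm, and for 86.3% of all tested genes.

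The first title number was considered because it splits both groups. DMSO 1_3 and 27HC 1_2 both carry a 1. Among the tumours with first number 2 the log2 fold changes were 1.11 for Hbb-bs, 1.39 for Hbb-bt, 1.18 for Hba-a1, 1.37 for Hba-a2 and 0.80 for Alas2. There 6 of 7 genes lay above 0 (47.4% of tested genes), and 3 of 7, Hbb-bs, Hbb-bt and Hba-a2, were higher at an unadjusted p under 0.05 (1.45% of tested genes). These are not independent counts, since the globins vary together. In this subset 0 of 7 genes were called after adjustment (0% of 15901 tested genes), with an adjusted p of 0.9265 for Hbb-bs. Among those with first number 1 0 of 7 genes lay above 0 (55.8% of tested genes), with -1.01 for Hbb-bs and -0.11 for Alas2, and 0 of 7 were called (0% of 15541 tested genes). The difference between the numbers was 2.182 (SE 1.139) on the log2 scale for Hbb-bs, with an unadjusted p of 0.07085 and an adjusted p of 0.911 in edgeR, and it passed for none of the 7 genes. The subsets do not show that the effect differed.

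**Figure D4:**
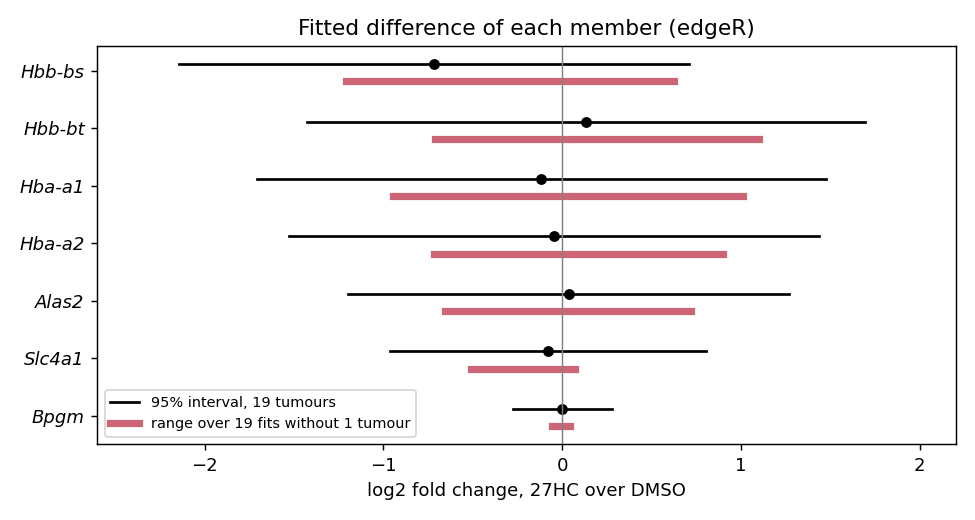
Log2 fold change of each gene, 27HC over DMSO (horizontal axis), with black points and bars for the edgeR value and its 95% interval over 19 tumours and red bars for the range over 19 fits that each left out 1 tumour. All 7 intervals cross 0, and for Hbb-bs the red bar runs from -1.2074 to 0.6238.

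Other genes of red cell biology were counted by list, none of which held a called gene. In haem synthesis, 7 of 13 tested genes lay above 0 on the log2 fold change scale and 6 lay below. Their median was 0.015 against 0.014 over all tested genes. Alas1, the form of the enzyme that all cells use, was at -0.02 (SE 0.15) and had a rho of -0.21 with Hbb-bs. Alad, the second enzyme of the pathway, had a rho of 0.42 with Hbb-bs and 0.65 with Alas2, and Fech, which inserts the iron, 0.36 and 0.57. Apart from Alas2 these were the highest in the list, whose median rho with Hbb-bs was -0.10 and whose lowest was -0.39, for the mitochondrial iron carrier Slc25a37. Mean CPM of Alad was 30.85 in the libraries of low GC content and 89.36 in the others. For Fech these means were 52.12 and 61.59. The part of base composition in these rho values was not tested.

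In the red cell membrane and skeleton list, 9 of 13 tested genes lay above 0 and 4 below, with a median of 0.033. Ank1, the ankyrin that ties band 3 to the membrane skeleton, was at 0.41 (SE 0.21), with an adjusted p of 0.9998 in edgeR, and had a rho of 0.47 with Hbb-bs. Of the erythroid transcription factors, 5 of 8 lay above 0 with a median of 0.103, and their median rho with Hbb-bs was -0.34. Among 8 tested precursor genes, 3 lay above 0 and 5 below, with a median of -0.115.

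Genes that reticulocytes keep as they mature formed another list. It had 10 of 19 tested genes above 0, a median log2 fold change of 0.019 and a median rho with Hbb-bs of 0.23. Bnip3l, which clears mitochondria from reticulocytes, had a rho of 0.41. Xpo7, an erythroid exportin, was at -0.19 (SE 0.09), the only one of the list with an unadjusted p under 0.05.

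In the list of glycolysis and bisphosphoglycerate enzymes, 3 of 17 tested genes lay above 0 and 14 below, with a median of -0.049. Pgk1, phosphoglycerate kinase, was at -0.27 (SE 0.13), with an adjusted p of 0.9998 in edgeR. In the list of haem and globin clearance, 3 of 15 lay above 0 and 12 below, with a median of -0.087. There Hmox1 was at -0.41 (SE 0.34), with close medians of 249.5 CPM in DMSO and 243.8 in 27HC tumours. DMSO 1_3 had 714.3 CPM of Hmox1, and the next highest DMSO tumour had 418.4. Slc40a1, the iron exporter ferroportin, had a rho of 0.49 with Hbb-bs, as did Ftl1, the ferritin light chain. Epo itself, the erythropoietin gene, was at 0 in 17 of 19 tumours.

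Markers of other blood and vessel cells were counted in the same way. Of 12 tested neutrophil markers 9 lay above 0, with a median log2 fold change of 0.627. S100a8 was at 0.94 (SE 0.38) and Retnlg at 0.85 (SE 0.33), neither passing after adjustment. These were the 2 of the list with an unadjusted p under 0.05 in edgeR. The 3 below 0 were Csf3r at -0.14 (SE 0.19), Cxcr2 at -0.07 (SE 0.24) and Mmp8 at -0.50 (SE 0.48). Of the platelet markers 5 of 12 were tested, and Pf4 was at -0.57 (SE 0.26). Its medians were close, 5.481 CPM in DMSO and 5.035 in 27HC tumours. DMSO 1_3 had 19.89 CPM of Pf4, and the next highest DMSO tumour had 7.848. The summed CPM of the platelet list ran from 53.67 to 123.6 in DMSO tumours and from 39.92 to 137.2 in 27HC tumours. Itgb3 made up most of this sum, with means of 67.05 CPM in DMSO and 81.87 in 27HC tumours, against 7.315 and 4.935 for Pf4. The endothelial list had a median of 0.058, with 7 of 11 genes above 0, and its summed CPM ran from 228.9 to 500.4 and from 229.1 to 451.9. Vessel markers thus spanned a far narrower range than the globins.

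None of the listed genes outside the 7 had a rho above 0.5 with Hbb-bs, against 498 of 15622 tested genes. The median rho was 0.06 over all tested genes, 0.26 for haem and globin clearance, 0.24 for glycolysis, 0.21 for membrane genes, 0.18 for endothelium, -0.09 for precursor genes, -0.10 for haem synthesis and -0.32 for B cells. These are descriptions over tumours whose libraries differed in depth and base composition, and the part of either in these rho values was not tested.

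**Figure D5:**
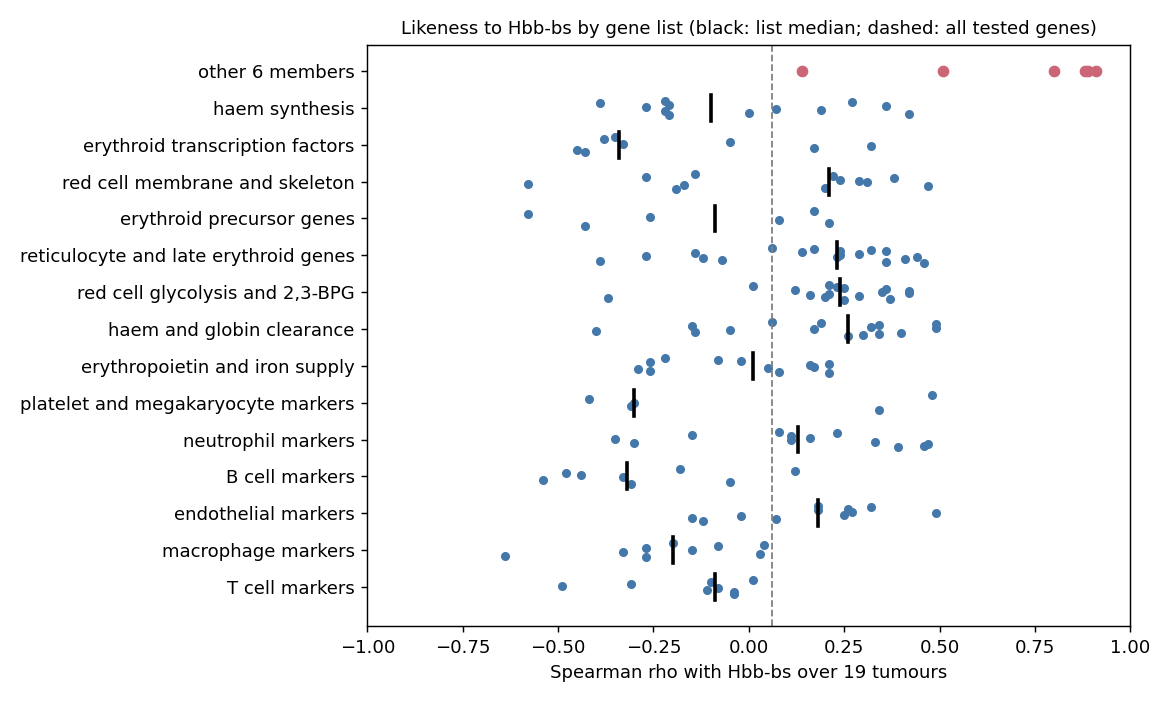
Spearman rho with Hbb-bs over 19 tumours (horizontal axis) for the tested genes of each list (rows), with a black mark at the list median and a dashed line at the median of all tested genes, 0.06. The globins and Alas2 lie at 0.8 or above, and every listed gene outside the 7 lies below 0.5.

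Genes most like each red cell gene across the 19 tumours were sought among the 12481 genes whose log2 CPM averaged 1 or more. For Hbb-bs, the nearest outside the 7 were Dtwd1 (rho 0.858), Acot13 (0.83), Psma3, a proteasome subunit (0.788), Maip1 (0.775) and Ngdn (0.754). For Alas2 they were Lmo4 (0.802), mt-Co1, a mitochondrially encoded subunit of cytochrome oxidase (0.784), Ick (0.763), Faim2 (0.76) and mt-Co3 (0.742). No gene was on both lists. For Slc4a1 they were Gpr19 and 1700021F05Rik (0.728 each), 1700088E04Rik (0.677), Batf3 (0.674) and Sh2d6 (0.661). Bpgm had closer neighbours, Pofut1 (0.935), Golga7b (0.918), Gmpr and Tspan5 (0.905 each) and Asl (0.902). Without the libraries of low GC content the rho of Pofut1 with Bpgm was 0.842 and that of Asl 0.78.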

How the data were processed

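RNA of 19 tumours was sequenced from stranded poly(A) libraries, per the labels' protocols. The deposited values are expected counts per gene, which the authors estimated; GRCm38, kallisto 0.44.0, limma and edgeR appear, without roles, in the submitters' processing notes. Expected counts were rounded and fitted with edgeR 4.0.16 (R 4.3.3; quasi-likelihood test, TMM, default low-count filter, group as only term). Of 26796 genes 15629 were tested, with Benjamini-Hochberg adjustment and a threshold of 0.05. Log2 CPM used a prior count of 2. Symbols were found for 26290 identifiers. Gene positions and transcripts are from GENCODE M21 on GRCm38, and promoters from RefSeq. Correlations used two-sided permutation tests with 100000 resamples, for which 1e-05 is the smallest p. The procedure was tested on simulated data.

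The 7 genes, the gene lists and the naming rule were chosen with earlier results of these data known. The rule named the 7 genes, preset genes, up to 3 genes per list by smallest p and, for 4 of the 7, the 5 genes most like it. Only part are named, and 3 listed genes are not reported singly here but stay in the list counts. Genes named for a high rho, a high level or a log2 fold change below 0 within a list were chosen after their values were seen. No libraries were duplicates: the lowest chi-square per degree of freedom within a group was 39.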

Additional observations from a re-analysis of the deposited data

Results flagged for a closer look

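In 11 of the 14 groups checked (7 genes in 2 treatments), 1 tumour stood further from the others than Dixon's 95% limit allows; chance gives this in about 1 in 20 groups of normally distributed values, and CPM are skewed. All 11 were highest values of the same 2 tumours, in genes that vary together, so they are not 11 separate signals. On log2 CPM, a scale added after seeing the data, 1 of the 14 groups passed the limit, Alas2 in 27HC 1_2 (gap over range 0.469 against a limit of 0.466).

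DMSO 1_3 was the highest of 9 for Hbb-bs (700.9 CPM, next 114.9), Hbb-bt (35.8, next 10.95), Hba-a1 (1112, next 323.8), Hba-a2 (280.0, next 105.5) and Alas2 (22.25, next 8.326). 27HC 1_2 was the highest of 10 for Hbb-bs (262.8 CPM, next 100.4), Hbb-bt (39.83, next 8.908), Hba-a1 (953.8, next 221.8), Hba-a2 (244.3, next 80.06), Alas2 (25.01, next 6.934) and Slc4a1 (3.031, next 1.162).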

How the results depend on the processing

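No log2 fold change of the 7 genes passed under any alternative, but most lay near 0 and their sign was not stable. DESeq2 called 2 genes of the table instead of 0 and gave 0.6325 for Hbb-bs, 1.0184 for Hba-a1 and 0.0173 for Bpgm. voom gave 0.0721 for Hbb-bs, 0.354 for Hba-a1 and 0.4598 for Hba-a2, and with quality weights 0.0684, 0.3867 and 0.5311, and 0.0534 for Bpgm. RLE factors gave 0.0008 for Hba-a2 and 0.0185 for Bpgm, and no filter 0.0006 for Bpgm. The title number as a covariate gave 0.399 for Hba-a1 and 0.4803 for Hba-a2. First number 1 alone gave -0.0035 for Hbb-bt and -0.1129 for Alas2, and first number 2 alone 1.1068 for Hbb-bs, 1.1821 for Hba-a1, 1.371 for Hba-a2 and 0.083 for Bpgm. Hbb-bs and Hbb-bt summed gave -0.6523 in place of Hbb-bt. Without the low GC libraries, chosen after seeing the data, values were 0.0663 for Hba-a2, 0.1629 for Slc4a1 and 0.0397 for Bpgm. Without DMSO 1_3 and 27HC 1_2, also chosen after seeing the data, they were 0.1468 for Hbb-bs, 0.1933 for Hba-a1 and 0.242 for Hba-a2. Slc4a1 has no value under the filter at 1 log2 CPM, which removes it. The cause of these moves was not tested.

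Same-numbered tumours of both groups did not pair: their deviations correlated at -0.425 to 0.779, over 0.1 in 5 of 9 pairs, and 1 tumour correlated best with its own number. With the full number as a block, 0 genes were called, and values were 0.1536 for Hbb-bs, 0.5649 for Hba-a1 and 0.5395 for Hba-a2.

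Leaving out each tumour in turn gave ranges of -1.2074 to 0.6238 for Hbb-bs, -0.7119 to 1.1028 for Hbb-bt, -0.9495 to 1.0101 for Hba-a1, -0.7162 to 0.8995 for Hba-a2, -0.6531 to 0.7188 for Alas2, -0.5108 to 0.0738 for Slc4a1 and -0.0551 to 0.043 for Bpgm, and 0 called genes throughout.

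The 4 globin pairs run (Hbb-bs with the other 3, and Hba-a1 with Hba-a2) kept sign and call in every alternative, and that of Hbb-bs with Alas2 in all but first number 2 (0.747, adjusted p 0.0703). Within first number 2, signs turned for Hbb-bs with Slc4a1 (-0.528), Alas2 with Slc4a1 (-0.346), Slc4a1 with Bpgm (-0.435), and Hbb-bs with Pf4 (-0.214), Ppbp (-0.068) and Pecam1 (0.059). Pecam1 was at 0.193 on linear CPM, 0.049 in first number 1 and -0.328 to 0.118 without 1 tumour. Unnormalized library sizes gave -0.176, -0.142 and -0.142 for Bpgm with Hbb-bs, Alas2 and Slc4a1. Without the 2 farthest tumours, Hbb-bs with Bpgm was -0.079, Slc4a1 with Bpgm -0.224 and Hbb-bs with Cd163 0.145. Calls were gained for Hbb-bs with Cd79a without 27HC 2_3 (-0.525, permutation adjusted p 0.0434), for Hbb-bs with Hmox1 on linear CPM (0.666, 0.0487) and without the low GC libraries (0.62, 0.0341), and for Alas2 with Bpgm on linear CPM (0.497, 0.0487). Depth limits the 13 precursor genes that were not tested, which have few counts.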

Other observations

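Values chosen after seeing the data bear on what Gata1 followed, since mast cells also use it. Over 19 tumours its r was -0.28 with Alas2 and 0.117 with Cpa3, a mast cell protease gene, and neither passed the permutation test over 3 added pairs. The third pair, Pf4 with Alas2, had an r of 0.516 (permutation adjusted p 0.0857).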
